A study of Mus musculus with 11 samples.

Results

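The genes described here are 36 cell cycle genes, chosen by name from the 24515 gene symbols of the study. They are 5 genes of the G1 phase (the cyclins Ccnd1, Ccnd2, Ccne1 and Ccne2 and the transcription factor E2f1), 10 genes of DNA replication in S phase, and 21 genes used mainly in G2 phase and mitosis. All 36 were found, and all 36 passed the filter on low counts. RNA was sequenced from 6 lung tumors and 5 normal lungs of 5 mice that lacked Gprc5a, a gene of the lung epithelium whose loss predisposes mice to lung tumors. Every mouse had been injected intraperitoneally with NNK, a nitrosamine ketone made from nicotine that causes lung cancer, at 50 mg per kg on 3 occasions per week for 8 weeks. The control for a tumor was therefore normal lung beside it, also without Gprc5a and also exposed to NNK, and wild-type or unexposed lung was not analysed here. The titles tag 3 tumors as ADN and 3 as ADC, tags that the labels do not spell out and that are used here as given. Mouse m335, at 4 months after NNK, gave both an ADN tumor and an ADC tumor, which are set against the same normal lung. The other ADN tumors came from mice m368 (6 months) and m350 (7 months), and the other ADC tumors from mice m372 and m378 (both 7 months). In bulk tissue, fewer dividing cells and less of a transcript in each dividing cell cannot be told apart.

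A cell that starts to divide first makes D-type cyclins, which with their kinase partners release E2F factors from the retinoblastoma protein. E2F factors then switch on the genes of DNA synthesis: the MCM helicase, the sliding clamp, and enzymes that make nucleotides. The genes of mitosis follow later in the cycle, under B-MYB and FOXM1 and, in resting cells, under repression by the DREAM complex. Because most cells of an adult lung rest, the transcripts of S phase and mitosis come from the few cells that cycle.

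Stretches of 6 promoters are shown because S phase and mitotic genes carry different short motifs in front of their start. Sequences are from RefSeq (GRCm38.p6), end before the first transcribed base that RefSeq gives the gene, and are written 5′ to 3′ on the strand of the gene. Capitals mark matches, on either strand, to the cell cycle homology region TTTGAA (known as CHR, a DREAM and B-MYB element), to CCAAT (the NF-Y box), and to the E2F element spelled as TTTGGCGC, TTTCCCGC, TTTGCCGC or TTTCGCGC, where neighboring matches may overlap. The first 4 are mitotic genes and the last 2 encode MCM subunits.
Cdk1, chr10:69352913-69353052, minus strand: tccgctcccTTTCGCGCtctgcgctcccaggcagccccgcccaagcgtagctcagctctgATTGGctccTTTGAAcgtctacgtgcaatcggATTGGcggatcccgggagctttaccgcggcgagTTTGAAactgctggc
Top2a, chr11:99024200-99024299, minus strand: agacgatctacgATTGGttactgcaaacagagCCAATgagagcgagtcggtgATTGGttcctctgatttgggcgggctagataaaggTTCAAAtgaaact
Ube2c, chr2:164769829-164769928, plus strand: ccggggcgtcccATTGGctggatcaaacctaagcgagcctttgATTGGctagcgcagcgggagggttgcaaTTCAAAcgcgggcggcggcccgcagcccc
Kif11, chr19:37376282-37376381, plus strand: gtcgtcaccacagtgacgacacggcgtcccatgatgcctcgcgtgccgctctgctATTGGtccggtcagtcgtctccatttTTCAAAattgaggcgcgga
Mcm6, chr1:128359706-128359825, minus strand: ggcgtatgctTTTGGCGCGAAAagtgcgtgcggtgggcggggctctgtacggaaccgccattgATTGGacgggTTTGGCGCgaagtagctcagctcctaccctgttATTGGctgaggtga
Mcm5, chr8:75109349-75109467, plus strand: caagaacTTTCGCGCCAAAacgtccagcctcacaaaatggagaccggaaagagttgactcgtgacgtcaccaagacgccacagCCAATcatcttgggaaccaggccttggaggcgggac

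A promoter window from 250 bases before to 50 bases after the start was given for 27 of the 36 genes. A gene was counted if any window of it held a match, while the share over all promoters was taken per window. The CHR letters were present for 12 of 16 mitotic genes (75.0%) and for 1 of 9 S phase genes (11.1%, Mcm2), against 17.9% of 32851 promoter windows of the same length. CCAAT was found for 14 of 16 mitotic and 7 of 9 S phase genes, against 37.4% of all windows. The E2F letters were present for 4 of 9 S phase genes (44.4%: Mcm3, Mcm5, Mcm6 and Mcm7) and for 1 of 16 mitotic genes (Cdk1), against 2.26% of all windows. A match describes letters only and shows no binding in these tissues.

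The 11 libraries held 19938822 to 46987587 counts, the lowest in the normal lung of mouse m372, and no member had fewer than 2 counts in any library. Levels are given as CPM, the share of a library's counts in parts per 1000000, on library sizes scaled by TMM (the trimmed mean of M-values). For lymphoid genes a pair of libraries stood apart. In the normal lung of mouse m372, all 12 thymocyte genes of a marker list were higher than in any other normal lung, with a summed level of 1080.2 CPM against 90.8 to 239.5 CPM in the other 4. Rag1, which rearranges antigen receptor genes in immature lymphocytes, had 4670 counts there, 629 in the normal lung of mouse m350 and at most 15 in every other library. Its 8 T cell genes summed to 330.0 CPM, against 100.3 to 170.8 CPM in the other normal lungs. The ADC tumor of mouse m335 had T cell genes summing to 520.0 CPM, against 29.1 to 63.0 CPM in the other 5 tumors, and 8 B cell genes to 582.7 CPM against 108.3 to 218.4 CPM (167.5 to 386.3 CPM in normal lungs). The thymocyte list also summed to 281.9 CPM there against 26.1 to 47 CPM, and 9 of its 12 genes were highest there among the 6 tumors. Within that list, Rag1 and Rag2 had 0 counts there, where 3 counts would be 0.101 CPM, while Dntt had 10 counts and Arpp21 had 25. That tumor was also the lowest of the 6 tumors for all 8 genes of alveolar type 2 cells, with a sum of 33645.6 CPM. The other tumors lay between 99365.7 and 131594.0 CPM and the normal lungs between 40377.8 and 54858.7 CPM. The 8 endothelial genes were at 2592.3 to 4168.3 CPM in normal lungs and 537.5 to 949.9 CPM in tumors. Other normal lungs were extreme for other lists. In that of mouse m368, 7 alveolar macrophage genes summed to 9543.7 CPM, against 524.8 to 1200.3 CPM in the other normal lungs. In that of mouse m335, 8 erythroid genes summed to 17195.4 CPM, against 3619.9 to 8344.1 CPM. The part of these cell types in the levels of the cell cycle genes was not tested.

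Across all 6 tumors, none of the 36 genes passed the test against normal lung, although 20 of the 21 mitotic genes had a positive fold change. The fit was edgeR's quasi-likelihood model with a term for each mouse, and p-values were adjusted over 15175 genes. It called 0 of the 36 at an adjusted p below 0.05, where 11.6% of all genes tested were called (3.68% higher and 7.91% lower). At an unadjusted p below 0.05 there were 3 (Ccnd1, Tyms and Cdk1), and DESeq2 called the same 3 at an adjusted p below 0.05, where it called 8.48% of all genes higher. The log2 fold change had a median of 0.51 over the mitotic genes, and it was positive for 6 of the 10 S phase genes with a median of 0.03, and for 2 of the 5 G1 genes with a median of -0.43. Over all genes tested the median was -0.03. Over all 36 genes it was 0.35 and depended on single libraries: 0.04 without the normal lung of mouse m335, 0.17 without either library of mouse m378, 0.54 and 0.55 without the normal lung or the tumor of mouse m368, and 0.77 without either library of mouse m372. No gene of the 36 had all 6 tumors above all 5 normal lungs (3.55% of all genes did) or all below them (7.91% did). For 12 genes 5 of the 6 tumors exceeded their own normal lung, and for no gene did all 6.

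**Figure D1:**
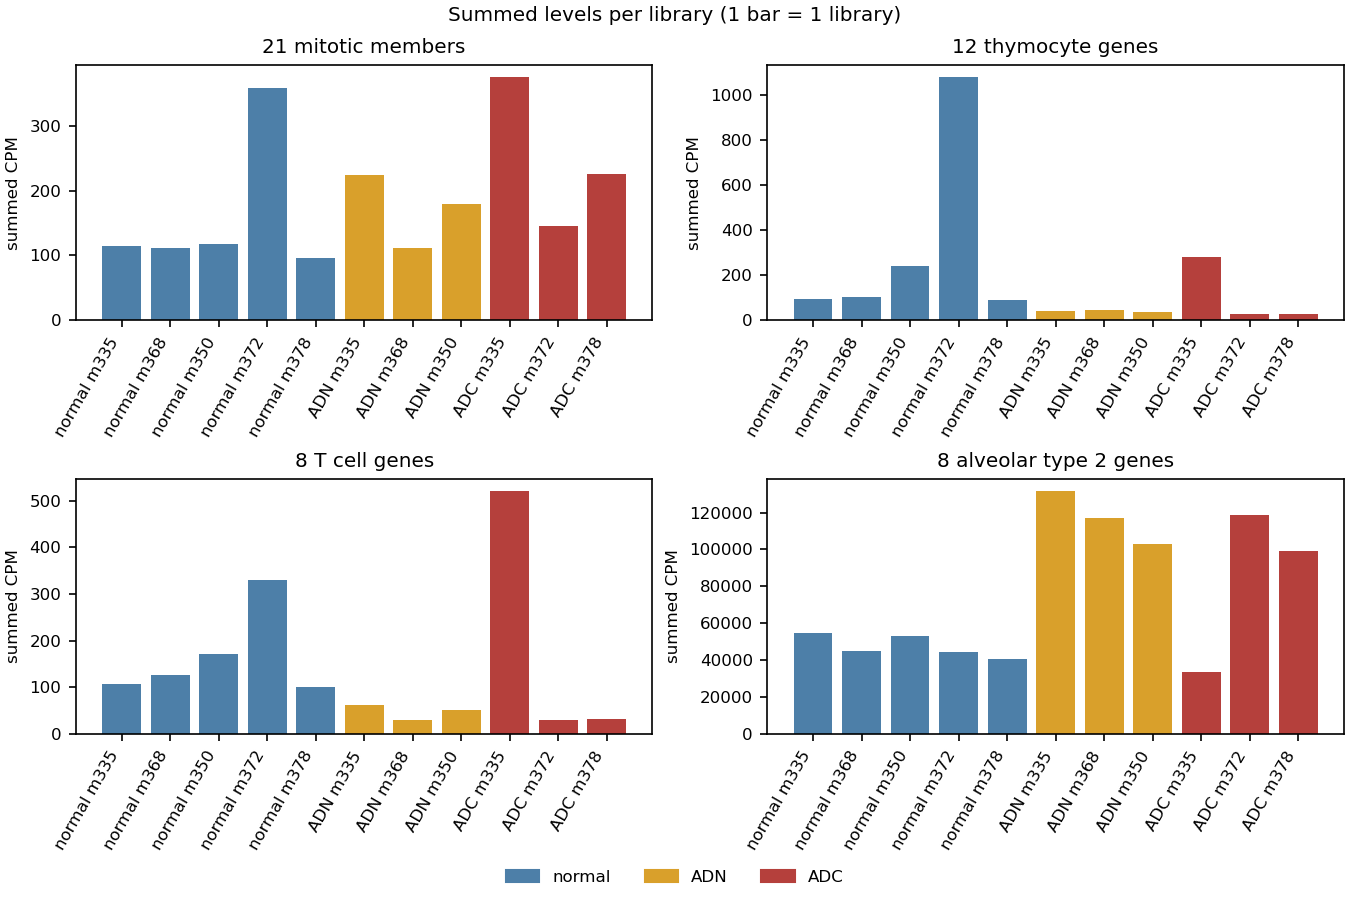
Summed level per library of the 21 mitotic genes, 12 thymocyte genes, 8 T cell genes and 8 alveolar type 2 cell genes, in CPM on linear axes that start at 0, with 1 bar per library colored by group. The mitotic sum was highest in the normal lung of mouse m372 (358.1 CPM) and the ADC tumor of mouse m335 (375.0 CPM), the libraries with the highest T cell sums.

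Among the mitotic genes, Mki67 (chr7:135689788-135716379, mm10) encodes the Ki-67 antigen, a protein of cycling cells that coats mitotic chromosomes. It was at 12.0, 19.5, 17.4, 61.4 and 14.5 CPM in the normal lungs of mice m335, m368, m350, m372 and m378. It was at 28.1, 17.5 and 20.2 CPM in the ADN tumors of mice m335, m368 and m350, and at 44.8, 20.9 and 33.2 CPM in the ADC tumors of mice m335, m372 and m378. The highest value of all was thus in a normal lung, and the groups overlapped. The log2 fold change of tumors over normal lungs was 0.33 ± 0.44 (SE, adjusted p = 0.698 by edgeR).

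Top2a (chr11:98992947-99024189), the topoisomerase that untangles replicated chromosomes, was likewise highest in the normal lung of mouse m372. In the same order of mice it was at 12.7, 11.2, 13, 52.9 and 9.8 CPM in normal lungs, 24.6, 6.66 and 22.0 CPM in ADN tumors and 50.9, 15.0 and 25.1 CPM in ADC tumors. The ADN tumor of mouse m368 was the lowest of all 11 libraries and lay below its own normal lung. The normal lung of mouse m372 exceeded all 6 tumors.

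Cdk1 (chr10:69336635-69352912), the kinase that drives entry into mitosis, was the mitotic gene with the largest fold change, 1.01 ± 0.39 on the log2 scale (SE, adjusted p = 0.139 by edgeR). It was at 5.89, 4.13, 4.33, 15.1 and 3.84 CPM in normal lungs, 12.4, 10.6 and 7.74 CPM in ADN tumors and 25.4, 9.7 and 11.0 CPM in ADC tumors. All 6 tumors were above 4 of the 5 normal lungs, and the ADC tumor of mouse m335 was the only tumor above the fifth, that of mouse m372. Of its cyclin partners, Ccnb1 was at 1.31 to 8.98 CPM in normal lungs and 1.33 to 11.2 CPM in tumors (log2 fold change 0.56 ± 0.59). Ccnb2 ranged from 3.01 to 11.2 CPM in normal lungs and from 4.39 to 12.9 CPM in tumors. Ccna2, a cyclin of both S phase and G2, ranged from 5.47 to 24.9 CPM and from 2.72 to 28.7 CPM. For each of these cyclins the highest normal lung was that of mouse m372 and the highest tumor the ADC tumor of mouse m335.

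Foxm1, the transcription factor of late cell cycle genes, was an exception among the mitotic genes. It was at 13.7, 7.89, 8.13, 19.8 and 7.56 CPM in normal lungs, 14.7, 7.81 and 13 CPM in ADN tumors and 12.5, 9.75 and 13.8 CPM in ADC tumors. Its level in the ADC tumor of mouse m335 lay under that of the own normal lung (log2 value -0.12), while the other 20 mitotic genes were above theirs.

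Of the mitotic kinases, Plk1, which acts from spindle assembly to cell division, was at 1.68 to 8.17 CPM in normal lungs and 2.25 to 8.85 CPM in tumors. Aurka, the kinase of spindle poles, was the only mitotic gene with a negative log2 fold change over all tumors, -0.20 ± 0.39 (SE, adjusted p = 0.797 by edgeR). Its range was 2.61 to 8.62 CPM in normal lungs and 1.26 to 6.69 CPM in tumors. The chromosomal passenger complex, which corrects faulty attachments of chromosomes to the spindle, was represented by the kinase Aurkb and by Birc5 and Cdca8. Birc5 (survivin) was at 4.48, 2.98, 3.59, 10 and 3.15 CPM in normal lungs, 6.86, 4.85 and 4.17 CPM in ADN tumors and 17.2, 5.49 and 8.33 CPM in ADC tumors. Its log2 fold change was 0.63 ± 0.43 for all tumors and 0.95 ± 0.53 for ADC tumors, and neither passed the test. Aurkb was at 1.84 to 7.71 CPM in normal lungs and 3.14 to 11.7 CPM in tumors. Cdca8 was at 1.78 to 9.26 CPM and 3.0 to 10.7 CPM. These 3 genes exceeded the own normal lung of the ADC tumor from mouse m335 by 1.83 (Birc5), 2.38 (Aurkb) and 2.29 (Cdca8) on the log2 scale.

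The spindle checkpoint holds cells in mitosis until all chromosomes are attached, and Bub1 and Bub1b are kinase-family proteins of that checkpoint. Bub1 was the mitotic gene whose highest tumor value lay in the ADC tumor of mouse m378, 6.94 CPM, against 1.33 to 6.22 CPM in normal lungs. Bub1b was at 4.45 to 16.1 CPM in normal lungs and 6.14 to 13.9 CPM in tumors, so its highest value was in a normal lung. Cdc20 and Ube2c act at the end of mitosis in the ubiquitin ligase that destroys cyclin B. Ube2c was at 9.49, 5.28, 5.47, 18.5 and 4.57 CPM in normal lungs, 20.6, 12.2 and 13.4 CPM in ADN tumors and 33.2, 5.9 and 12.3 CPM in ADC tumors. Of the 6 tumors, 5 were at least 2-fold above their own normal lung, while the ADC tumor of mouse m372 was below its own (log2 values 1.08 to 1.75 against -1.57). Cdc20 was at 5.37 to 12.8 CPM in normal lungs and 4.6 to 17.0 CPM in tumors. Its gene overlaps the far more abundant Elovl1 by 52 bases, and whether reads were counted by strand is not stated, so part of its reads may belong to Elovl1.

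The remaining mitotic genes serve the spindle and the kinetochore. Kif11, the motor that pushes spindle poles apart, was at 2.67 to 17.4 CPM in normal lungs and 4.57 to 10.3 CPM in tumors, and the normal lung of mouse m372 exceeded all 6 tumors. Cenpf, a kinetochore protein, did the same, with 2.1 to 12.6 CPM in normal lungs and 3.21 to 10.9 CPM in tumors. Tpx2, which activates Aurora A at the spindle, was at 4.38 to 14.2 CPM and 5.99 to 19.0 CPM. Nusap1, which bundles spindle microtubules, was at 2.61 to 12.8 CPM and 2.93 to 14.6 CPM. Kif20a, a motor needed to divide the cell, was at 2.7 to 9.44 CPM and 1.01 to 9.93 CPM. None of these 5 passed the test, with log2 fold changes of 0.18 (Kif20a) to 0.53 (Cenpf and Tpx2). Kif20a overlaps Brd8 and Cdc23, Nusap1 overlaps Oip5 and Ccna2 overlaps Exosc9, so their counts may also hold reads of the neighbor.

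**Figure D2:**
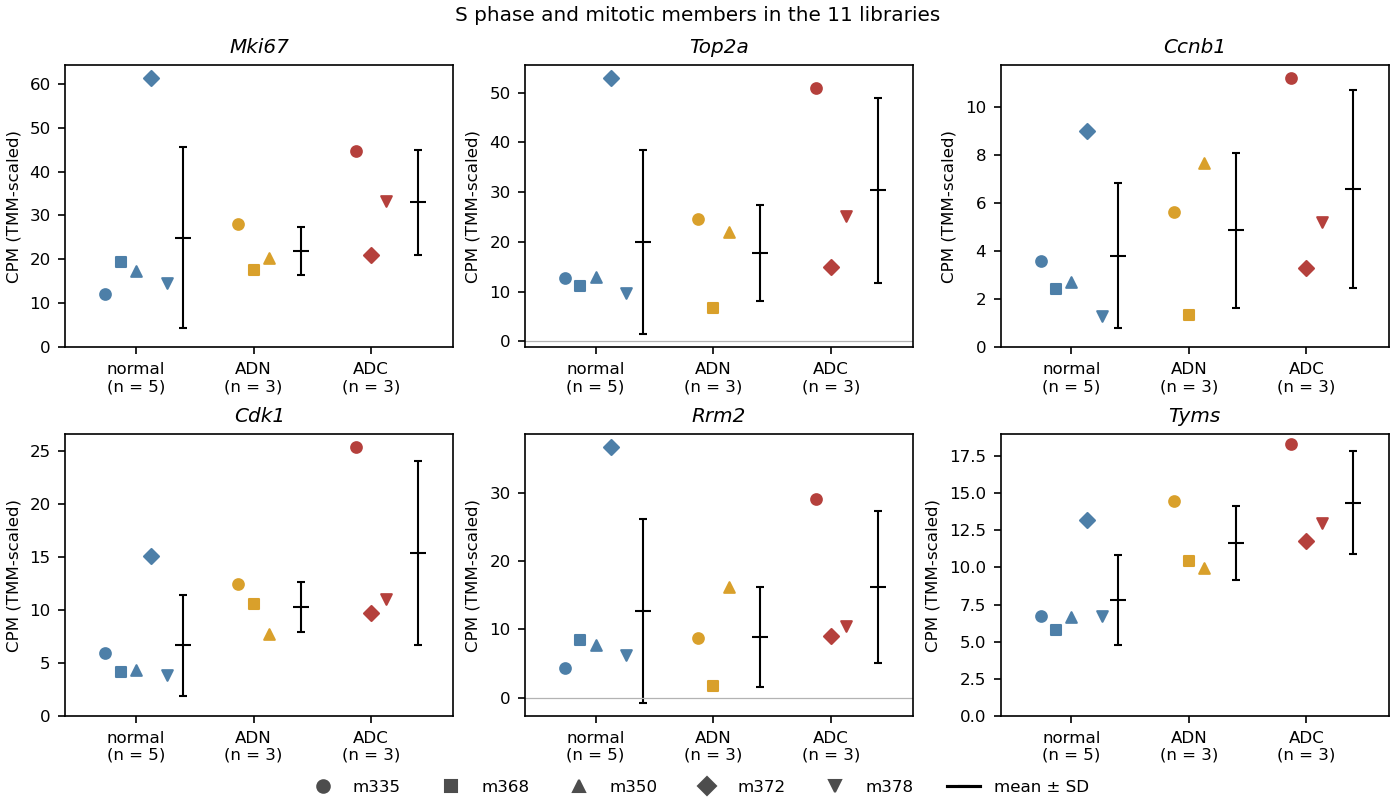
CPM on TMM-scaled library sizes (linear axes) of Mki67, Top2a, Ccnb1, Cdk1, Rrm2 and Tyms in 5 normal lungs, 3 ADN and 3 ADC tumors, with 1 symbol per mouse and the mean ± SD at the right of each group. In all 6 panels the normal lung of mouse m372 (diamond) lies above the other 4 normal lungs, and the ADC tumor of mouse m335 (circle) is the highest tumor.

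In S phase, Tyms and Tk1, which supply thymidylate for DNA, had the largest fold changes of the 10 genes, and neither passed the test. Tyms (chr5:30058200-30073625), the enzyme that makes thymidylate, was at 6.74, 5.81, 6.68, 13.2 and 6.7 CPM in normal lungs. It was at 14.5, 10.4 and 9.99 CPM in ADN tumors and 18.3, 11.8 and 13 CPM in ADC tumors, so every tumor exceeded the 4 lower normal lungs. The log2 fold change was 0.73 ± 0.25 (SE, adjusted p = 0.105 by edgeR). Tk1, thymidine kinase, which recycles thymidine in S phase, was at 6.06, 6.77, 4.67, 13.7 and 5.57 CPM in normal lungs. It was at 9.6, 7.39 and 8.21 CPM in ADN tumors and 16.6, 12.4 and 14.2 CPM in ADC tumors. The log2 fold change was 0.68 ± 0.30 over all tumors (adjusted p = 0.192) and 0.91 ± 0.37 in ADC tumors (adjusted p = 0.238, both by edgeR). Tk1 overlaps Afmid by 96 bases.

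Rrm2, the regulated subunit of ribonucleotide reductase, varied most among the S phase genes. It was at 4.28, 8.48, 7.76, 36.7 and 6.28 CPM in normal lungs, 8.7, 1.64 and 16.2 CPM in ADN tumors and 29.0, 9.08 and 10.5 CPM in ADC tumors. Its ADN tumors thus spanned 1.64 to 16.2 CPM. The log2 value over the own normal lung ran from -2.07 in the ADN tumor of mouse m368 to 2.62 in the ADC tumor of mouse m335, and the fold change over all tumors was 0.02 ± 0.80.

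The 6 subunits of the MCM helicase, which unwinds DNA at replication forks, had log2 fold changes from -0.48 (Mcm4) to 0.20 (Mcm7). Mcm6 was at 20.9, 26.8, 24.9, 45.1 and 23.0 CPM in normal lungs, 33.5, 11.7 and 20.4 CPM in ADN tumors and 73.5, 30.1 and 30.6 CPM in ADC tumors. The ADC tumor of mouse m335 stood apart from the other 5 tumors, and the ADN tumor of mouse m368 was the lowest of all libraries. Mcm5 was at 10.5 to 33.1 CPM in normal lungs and 10.3 to 41.6 CPM in tumors. Mcm7 was the least variable among tumors, at 24.4 to 34.0 CPM, with 19.5 to 34.9 CPM in normal lungs. Mcm2 (15.3 to 42.7 CPM in normal lungs, 11.2 to 29.9 CPM in tumors) and Mcm4 (15.9 to 30.1 CPM, 6.63 to 23.7 CPM) reached their highest values in a normal lung. Mcm3 was at 18.3 to 31.0 CPM and 13.3 to 33.5 CPM. Pcna, the sliding clamp of DNA polymerases, which also serves DNA repair, was at 39.4 to 84.5 CPM in normal lungs and 40.1 to 75.3 CPM in tumors, with a log2 fold change of 0.05 ± 0.24. None of these 7 genes passed the test in any comparison.

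The tumors differed widely from each other. Values here are log2 of CPM + 0.5 in the tumor over its own normal lung, with 1 library each and no test. The ADC tumor of mouse m335 had the highest values, with 33 of 36 genes above its normal lung, a median of 1.45 over all 36, 1.15 over the S phase genes and 1.75 over the mitotic genes. A total of 25 genes were at least 2-fold above, led by Rrm2 (2.62) and Aurkb (2.38), and the 3 below were Ccnd1, E2f1 and Foxm1. It was the highest of the 6 tumors for 31 of the 36 genes, and it is also the tumor with the highest T and B cell levels and the lowest alveolar type 2 levels given above. The ADC tumor of mouse m378 came next, with 33 of 36 genes above, a median of 0.92, and all 21 mitotic genes above its normal lung by 0.77 (Aurka) to 1.66 (Ccnb1). Its T cell sum was 32.7 CPM and its alveolar type 2 sum 99365.7 CPM, so the lymphocyte level of the ADC tumor of mouse m335 was not shared by this tumor.

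Among ADN tumors, that of mouse m335 had 28 of 36 genes above its normal lung, with medians of 0.98 over mitotic and 0.45 over S phase genes. The ADN tumor of mouse m350 had 24 above, with medians of 0.62 and 0.04. The ADN tumor of mouse m368 had only 16 of 36 above, with medians of 0.04 over mitotic and -0.55 over S phase genes. It was the lowest of the 6 tumors for 23 genes. The genes within it went apart: Ccnd2 (2.54), Ccnd1 (1.94), Cdk1 (1.26) and Ube2c (1.14) were at least 2-fold above the own normal lung. Rrm2 (-2.07), E2f1 (-1.89), Mcm4 (-1.51), Kif20a (-1.35), Bub1 (-1.29), Ccna2 (-1.23) and Mcm6 (-1.16) were at least 2-fold below it. Over all genes tested, the medians of the 6 tumors lay between -0.13 and 0.00. For the counts of genes in single tumors, the share over all genes is not given here.

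**Figure D3:**
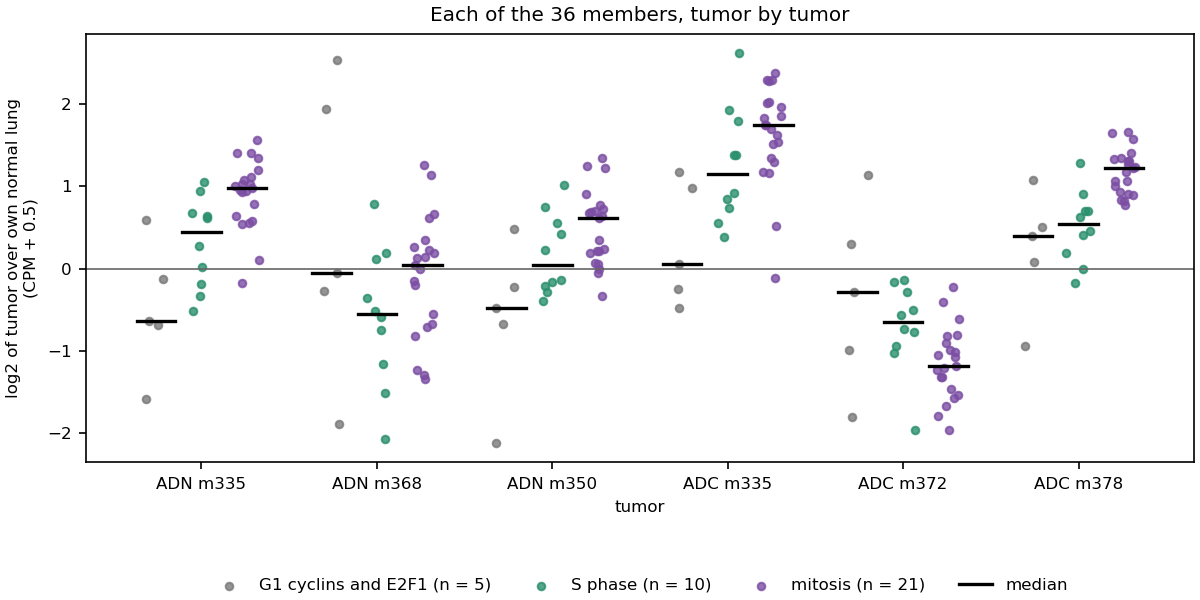
Log2 of the level (CPM + 0.5) in each tumor over the normal lung of the same mouse, 1 point per gene for the 5 G1, 10 S phase and 21 mitotic genes, with black lines at the medians. The mitotic medians run from 1.75 in the ADC tumor of mouse m335 to -1.18 in the ADC tumor of mouse m372.

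The ADC tumor of mouse m372 ran the other way. Only Ccnd1 (1.14) and Ccnd2 (0.30) were above its own normal lung, all 10 S phase genes (median -0.66) and all 21 mitotic genes (median -1.18) were below, and 17 of the 36 were at least 2-fold below. Its normal lung was the highest of the 5 normal lungs for 33 of the 36 genes, among them all S phase and mitotic genes. It was at least 2-fold above the mean log2 level of the other 4 for 25 genes, 20 of them mitotic, and no other normal lung was so for any gene. It was above all 6 tumors for 13 genes. That normal lung is the library with the high thymocyte and T cell levels given above. Against the other 4 normal lungs in place of its own, the same tumor had a median of 0.35, and 21 of the 36 genes were above all 4. For the counts in this paragraph the share over all genes tested is not given here, so they describe these genes only.

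The tumors of mouse m335 allow a comparison of an ADC and an ADN tumor in 1 animal at 1 time, with 1 library each and no test. The ADC tumor was higher for 33 of the 36 genes, by a median of 0.90 on the log2 scale, and at least 2-fold higher for 13. For the 10 S phase genes it was higher in all 10, with a median of 0.97, and for the mitotic genes in 19 of 21, with a median of 0.81. The share and the median over all genes tested are not given here for this pair, so these values describe these genes only. The lymphocyte and alveolar type 2 levels given above also differ between these tumors, with T cell sums of 63.0 CPM in the ADN and 520.0 CPM in the ADC tumor.

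In the G1 group the D-type cyclins and E2f1 departed from the rest. Ccnd1 (chr7:144929931-144939925), cyclin D1, the growth-factor responsive cyclin that starts G1, was at 390.9, 223.1, 314.8, 273.3 and 279.8 CPM in normal lungs. It was at 590.1, 858.4 and 440.0 CPM in ADN tumors and 279.2, 603.7 and 590.4 CPM in ADC tumors. All tumors but the ADC tumor of mouse m335 were above all 5 normal lungs, and that tumor, the one with the highest S phase and mitotic levels, was below its own normal lung. The log2 fold change was 0.89 ± 0.31 (SE, adjusted p = 0.104 by edgeR). Without that tumor, the one low for Ccnd1, it was 1.09 ± 0.22 (adjusted p = 0.00873 by edgeR, where 9.58% of all genes were called higher). Leaving out each of the other 10 libraries gave no call, with an adjusted p of up to 0.261 and a log2 fold change down to 0.66. Without the mouse block it was 0.92 ± 0.26 (adjusted p = 0.0321, where 5.96% of all genes were called higher), and that call was lost when the normal lung of mouse m372 was also left out (adjusted p = 0.0751, by edgeR).

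Ccnd2, cyclin D2, was at 101.5, 109.8, 99.9, 72.7 and 83.4 CPM in normal lungs, 64.8, 639.0 and 85.9 CPM in ADN tumors and 104.8, 89.9 and 43.2 CPM in ADC tumors. A single tumor, the ADN tumor of mouse m368, set its mean, and the other 5 tumors overlapped the normal lungs or lay below them. Of the E-type cyclins, which drive the step from G1 into S phase, Ccne1 was at 1.98 to 4.85 CPM in normal lungs. It was at 2.34, 2.3 and 0.0714 CPM in ADN tumors and 5.61, 2.19 and 2.96 CPM in ADC tumors. The lowest value, in the ADN tumor of mouse m350, rests on 2 counts in a library of 28601845. Ccne2 was at 0.652 to 3.27 CPM in normal lungs and 0.453 to 3.92 CPM in tumors, and overlaps Ints8.

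E2f1 (chr2:154559400-154569892), an activator of S phase genes, was the only gene of the 36 that edgeR called in any comparison of all 11 libraries with the mouse block, and it fell in ADN tumors. DESeq2 also called it there, together with a higher Ccnd1 (adjusted p = 0.0154 by DESeq2). Over all 15175 genes tested, DESeq2 called 1062 higher and 1869 lower in ADN tumors. E2f1 was at 18.1, 13.1, 16.1, 16.3 and 14.1 CPM in normal lungs, 5.69, 3.17 and 11.4 CPM in ADN tumors and 15.2, 13.3 and 14.9 CPM in ADC tumors. All 3 ADN tumors were below all 5 normal lungs, as was so for 14.5% of all genes tested, and the ADC tumors lay within the range of the normal lungs. The log2 fold change of ADN tumors was -1.40 ± 0.34 (SE, adjusted p = 0.0466 by edgeR), and that of ADC tumors -0.12 ± 0.32 (adjusted p = 0.894). The call stood close to the threshold: leaving out any 1 of 10 of the 11 libraries raised the adjusted p above it, up to 0.274 without the ADN tumor of mouse m335, and only leaving out the ADC tumor of mouse m335 kept it, at 0.0425.

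**Figure D4:**
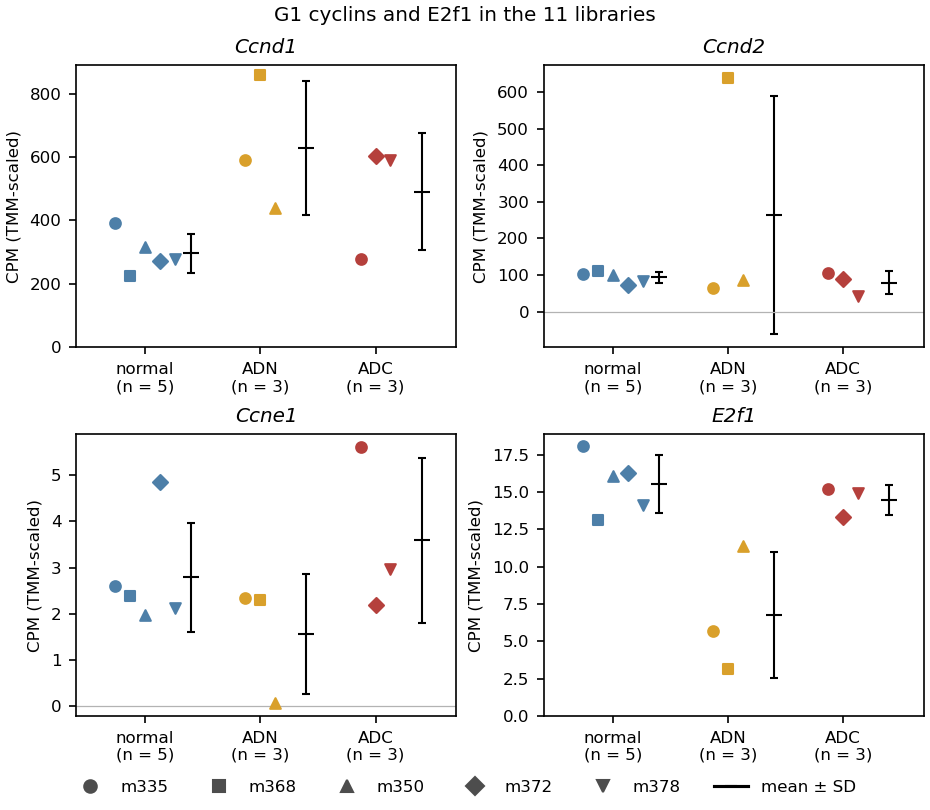
CPM on TMM-scaled library sizes (linear axes) of Ccnd1, Ccnd2, Ccne1 and E2f1 in 5 normal lungs, 3 ADN and 3 ADC tumors, with 1 symbol per mouse and the mean ± SD at the right of each group. E2f1 is at 3.17 to 11.4 CPM in the 3 ADN tumors and 13.1 to 18.1 CPM in the 5 normal lungs, and the Ccnd2 mean of the ADN group rests on 1 tumor at 639.0 CPM.

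By tumor type, ADN tumors against normal lungs gave 1 called gene of the 36, the lower E2f1, where 7.53% of all genes were called and 4.84% were called lower. The median log2 fold change was -0.38 over S phase genes and 0.25 over mitotic genes, against -0.08 over all genes. Over the 36 genes it was 0.15, and it changed sign to -0.19 without the normal lung of mouse m335, was 0.49 without the ADC tumor of that mouse, and lay between 0.03 and 0.36 when any other library was left out. With library totals in place of TMM it was -0.05, where the median of all genes was -0.28. ADC tumors against normal lungs gave 0 called genes of the 36, where 4.99% of all genes were called and 3.98% were called lower. A single gene, Tk1, was below an unadjusted p of 0.05 in edgeR, and DESeq2 called 0. The medians in ADC tumors were 0.39 over S phase and 0.63 over mitotic genes, against 0.00 over all genes, with 20 of 21 mitotic genes positive. Over the 36 genes the median was 0.51. It changed sign to -0.08 without the ADC tumor of mouse m335, with 14 of 36 positive, and was 0.19 without its normal lung, 0.32 without either library of mouse m378 and 1.19 without either library of mouse m372. These comparisons share the normal lungs.

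The direct comparison of ADC with ADN tumors gave 0 called genes of the 36, where 0.0% of all genes were called by edgeR. E2f1 alone was below an unadjusted p of 0.05, with a log2 difference of 1.29 ± 0.42 (SE, adjusted p = 0.744), and DESeq2 called 0 of the 36 and 129 genes in all. The log2 difference was positive for all 10 S phase genes (median 0.55) and for 17 of 21 mitotic genes (median 0.48), against a median of 0.04 over all genes. With the ADC tumor of mouse m335 left out, the median over the 36 genes changed from 0.50 to -0.28, and 10 of 36 were positive. It was 0.98 without either library of mouse m372 and 0.32 without either library of mouse m378.

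Left out of the comparison, the normal lung of mouse m372 changed the number of calls in a fit without the mouse block. It was left out after it had been seen to be the highest normal lung for 33 of the 36 genes, so its removal raises these fold changes by construction, and the counts that follow are a description. Of the 36 genes, 3 then rose in tumors against the other 4 normal lungs: Tyms (1.0 ± 0.22, adjusted p = 0.0129), Cdk1 (1.49 ± 0.34, adjusted p = 0.0165) and Tk1 (0.98 ± 0.27, adjusted p = 0.0405), all by edgeR, where 3.85% of all genes were called higher. With the ADC tumor of mouse m335 also left out, Ccnd1 joined them, making 4 of 36 (adjusted p from 0.00399 for Cdk1 to 0.0307 for Tk1, by edgeR), where 8.14% of all genes were called higher. That tumor was the lowest of the 6 for Ccnd1 (279.2 CPM), so its removal raises the fold change of Ccnd1 by construction. In ADC tumors alone, 4 genes rose without that normal lung (Tk1, Cdk1, Tyms and Birc5), where 2.26% of all genes were called higher. In ADN tumors alone 0 of 36 were called by edgeR, with 8 at an unadjusted p below 0.05, where 3.51% of all genes were called higher. All 6 tumors were above all 4 other normal lungs for Tyms, Tk1, Cdk1 and Tpx2, which is 4 of 36 (11.1%), where 4.51% of all genes were. Leaving out the lung that was high in these genes favors this count by construction. With all 5 normal lungs it was 0 of 36, where 3.55% of all genes were. Mki67 and Top2a passed in none of these fits. With the mouse block kept, leaving out that normal lung also removed the tumor of its mouse from the comparison and gave 2 calls, Ube2c (1.37 ± 0.25, adjusted p = 0.0189) and Cdk1 (1.37 ± 0.32, adjusted p = 0.0451, both by edgeR), where 1.64% of all genes were called higher.

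Other genes of the same pathways came from lists of DNA replication (44 genes), mitosis (55 listed, 53 found by symbol) and cell cycle regulation (36 genes), none of them among the 36 above. In tumors against normal lungs 3.68% of all genes tested were called higher and 7.91% lower. Of the 44 replication genes 0 rose and 1 fell. It was Timeless, which protects replication forks, at 12.2 to 17.9 CPM in normal lungs and 6.52 to 9.31 CPM in tumors (-0.83 ± 0.18, adjusted p = 0.0205 by edgeR). Of the 53 mitotic genes 1 rose and 0 fell. Kif23, a motor of the central spindle needed to separate daughter cells, was at 3.44 to 8.03 CPM in normal lungs, 27.5, 55.7 and 12.2 CPM in ADN tumors and 13, 9.41 and 10.8 CPM in ADC tumors (1.83 ± 0.44, adjusted p = 0.0305 by edgeR). Every tumor was above every normal lung, and the highest value lay in the ADN tumor of mouse m368, which was lowest of the tumors for 23 of the 36 genes.

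Among the 36 regulators 1 rose and 2 fell, where 3.68% of all genes tested were called higher and 7.91% lower. Cdkn2a, which encodes the cell cycle inhibitors p16 and p19ARF, was at 1.5 to 4.09 CPM in normal lungs and 4.7 to 18.4 CPM in tumors (1.97 ± 0.45, adjusted p = 0.0236 by edgeR). Cdkn2d, an inhibitor of the cyclin D kinases, was at 13.7 to 24.8 CPM in normal lungs and 2.89 to 18.2 CPM in tumors (-1.39 ± 0.31, adjusted p = 0.0202). The cyclin D3 gene Ccnd3 was at 131.1 to 273.2 CPM and 93.6 to 164.1 CPM (-0.75 ± 0.15, adjusted p = 0.0144, both by edgeR). Each of these 5 calls was lost when certain single libraries were left out, 7 of the 11 for Timeless, Ccnd3 and Cdkn2a and 8 of the 11 for Kif23 and Cdkn2d. Tumor by tumor, the 53 other mitotic genes had the same order at its ends as the 21: a median of 1.31 with 52 above in the ADC tumor of mouse m335, and -0.95 with 4 above in the ADC tumor of mouse m372. The normal lung of mouse m372 was the highest normal lung for 49 of these 53 genes and for 36 of the 44 replication genes.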

How the data were processed

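Per the labels' protocols, poly-A RNA was prepared with the kit Ion Total RNA-Seq v2, and an Ion Proton sequencer was used. STAR 2.4.1d, Bowtie2 2.1.0, Partek and the build mm10 are named in the submitters' processing notes; which tool did what, from which annotation and with what use of strand, is not given in the sources used here. The deposited values are expected counts for 36285 transcripts, which the authors left unnormalized. Transcripts were summed by gene symbol to 24515 genes and rounded; 78.4% to 86.2% of sums per library were already whole within 0.01. Ends of genes are printed 1 base lower than deposited.

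Genes were filtered with filterByExpr on tumor against normal, leaving 15175. They were scaled by TMM and tested, two-sided, with the robust quasi-likelihood test of edgeR 4.0.16 (R 4.3.3). Tumors against normal lungs came from a fit of 2 groups and the other comparisons from a fit of 3, each over all 11 libraries with the mouse as a block. P-values were adjusted by Benjamini-Hochberg over all genes, with a threshold of 0.05. The SE given with an edgeR fold change is its absolute log2 value divided by the square root of the F statistic of its test. DESeq2 1.42.0 was an alternative. The fit of tumors against normal lungs was also run on simulated counts with known changes. It called 12 of 100 genes changed by 1 on the log2 scale, 67 of 100 changed by 2, and 0 unchanged genes. A gene that was not called is thus not shown to be unchanged. Tumor by tumor values are log2 of CPM + 0.5.

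Libraries are paired by the mouse in the labels. Deviations from the group means correlated between tumor and own normal lung at 0.24, 0.109, 0.00493, -0.0444, -0.0367 and 0.254, and for 2 of 6 tumors the own lung ranked first. The ADN and ADC tumors of mouse m335 share 1 normal lung. Replicates are different mice, apart from that pair. All 36 members were named; of each pathway list, up to 5 genes with the smallest adjusted p past the threshold were. The members, pathway and marker lists were chosen with earlier results of these data known, and 3 alternatives (2 without the normal lung of mouse m372, 1 without mouse m335) were added after seeing the data.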

Additional observations from a re-analysis of the deposited data

Results flagged for a closer look

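In the normal lung of mouse m372, 22 of the 36 genes lay far above the other 4 normal lungs by Dixon's test of a single extreme value. Chance flags about 1 in 20 groups, and all 22 come from the same library, so they are not independent. The share of all genes tested that would be flagged in that library is not given here. The 22 are therefore not shown to be particular to the cell cycle genes. The S phase and G1 genes were Ccne1 (4.85 CPM), Mcm2 (42.7 CPM), Mcm4 (30.1 CPM), Mcm5 (33.1 CPM), Mcm6 (45.1 CPM), Rrm2 (36.7 CPM), Tyms (13.2 CPM) and Tk1 (13.7 CPM). Of the mitotic genes, the highest levels there were those of Mki67 (61.4 CPM), Top2a (52.9 CPM) and Ccna2 (24.9 CPM). The kinases were Cdk1 (15.1 CPM), Plk1 (8.17 CPM) and Aurkb (7.71 CPM). The partners of Aurkb were Birc5 (10 CPM) and Cdca8 (9.26 CPM). The genes of the spindle and of mitotic exit were Cdc20 (12.8 CPM), Cenpf (12.6 CPM), Kif11 (17.4 CPM), Kif20a (9.44 CPM), Nusap1 (12.8 CPM) and Tpx2 (14.2 CPM).

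Among the 6 tumors, the ADC tumor of mouse m335 was set apart in the same way for Ccne2 (3.92 CPM), Mcm6 (73.5 CPM), Cdk1 (25.4 CPM) and Birc5 (17.2 CPM). The ADN tumor of mouse m368 was set apart for Ccnd2 (639.0 CPM). Outside the 36 genes, the normal lung of mouse m378 was the extreme normal lung for Cdkn2a, at 4.09 CPM.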

How the results depend on the processing

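Each group holds 3 to 5 libraries, and 2 of the 11 libraries carry high lymphoid levels. The number of calls among the 36 genes moved with the libraries and the fit. Without the replicate block, 1 gene passed in tumors against normal lungs and 2 in ADN tumors (E2f1 and Ccnd1); 0 passed in the comparisons of ADC tumors, as with the block. DESeq2 called 3 in tumors and 2 in ADN tumors. With DESeq2 size factors, and with Rn45s left out of TMM, 0 passed in ADN tumors. Leaving out 1 library at a time, which under the block also removes a partner left alone in its mouse, gave 0 to 2 calls in tumors, 0 to 1 in ADN tumors, 0 to 1 in ADC tumors and 0 in ADC against ADN. Of the alternatives added after seeing the data, the fit with no replicate block that dropped the normal lung of mouse m372 gave 3 in tumors, 0 in ADN and 4 in ADC tumors. Over all genes, that fit called 590, 538 and 346 of 15327 higher. With the ADC tumor of mouse m335 also left out it gave 4, 4 and 4 of the 36. Over all genes, 1238, 1098 and 793 of 15214 were then called higher. Without all 3 libraries of mouse m335 the number among the 36 was 1 in tumors and 0 in ADN tumors. Over all genes, 955 and 221 of 15144 were called higher there. The cause of these changes in calls was not tested, and the fits that leave libraries out also hold fewer of them. No called gene changed sign. Of the 12 medians over S phase or mitotic genes, tumor by tumor, all kept within the spread under 5 other scalings, pseudocounts and filters, with a largest shift of 0.28. Under library totals the S phase median of the ADN tumor of mouse m350 and the mitotic median of the ADN tumor of mouse m368 changed sign, and the median of all genes in tumors against normal lungs moved to -0.22. In tumors 7 uncalled genes changed sign under some scaling: Ccnd2, Foxm1, Kif20a, Mcm5, Mcm6, Pcna and Rrm2. Counts over all genes also depended on the fit: DESeq2 called 3286 (tumors), 2931 (ADN), 1858 (ADC) and 129 (ADC against ADN), against 1759, 1142, 757 and 0 by edgeR. Without the replicate block the counts were 2242, 1779, 1546 and 3. Leaving out 1 library gave 917 to 3377, 0 to 1972, 65 to 1067 and 0 to 2.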
